A study of Mus musculus with 6 samples.

Results

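The genes described here are the immunoglobulin superfamily checkpoint receptors and ligands Cd96, Cd226, Cd200, Cd200r1, Lag3, Havcr2 and Cd160, in CD4+CD25+ T cells of mice lacking the histone deacetylase Hdac3 in Foxp3-expressing cells. The 7 genes are a list by name, of surface molecules that inhibit or stimulate T cells, drawn up with earlier results of these data known. Of the 7, 6 had a value, from 8 of the 22626 non-control probe sets of the array, which together measured 12393 genes. Cd226 had no probe set naming it alone and was not analysed here.

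The tested cells came from Hdac3-fl/fl Foxp3cre mice, in which a floxed Hdac3 gene is cut by a Cre recombinase named for Foxp3, so the deletion is directed to the Foxp3-expressing cells of the sample. The comparison cells came from wild type mice, and whether these carried Cre or a floxed allele is not stated. Both groups had the C57BL6 strain background and the same labelled cell type, CD4+CD25+ regulatory T cells, with 3 samples each, and ages and treatments are not given. For the deleted group 1 label field names HDAC11 and another names HDACII, whereas the titles and genotypes name HDAC3, and the groups here follow titles and genotypes. The sorting phenotype CD4+CD25+ also fits activated conventional T cells. Nothing in the labels says that the 3 samples of a group were separate animals, so each p-value covers sample-to-sample spread only, and that spread may be technical.

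Checkpoint receptors set the threshold at which a T cell or natural killer cell is activated. CD96 and CD226 compete for the nectin family ligand CD155, encoded by Pvr, with CD226 stimulating and CD96 mostly restraining the cell in mice. CD200 is a membrane ligand whose receptor, CD200R1, sends an inhibitory signal into myeloid cells and some T cells. LAG3 is a relative of CD4 that binds major histocompatibility complex class II, TIM-3, encoded by Havcr2, is an inhibitory receptor of activated T cells and myeloid cells, and CD160 is a receptor for the herpesvirus entry mediator encoded by Tnfrsf14. In regulatory T cells several of these molecules take part in contact-dependent suppression.

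Values are log2 expression after robust multiarray averaging (RMA), and differences are log2 of Hdac3 deleted minus wild type. Signal of 27 bacterial control probe sets, which have no mouse target, spanned 2.37 to 5.16 and marks the background range. Within a group the arrays correlated at 0.997 to 0.998 (Hdac3 deleted) and 0.996 to 0.997 (wild type) over all probe sets, and between groups at 0.921 to 0.923. Hdac3 itself averaged 8.49 ± 0.024 in the Hdac3 deleted samples and 9.04 ± 0.028 in the wild type samples (SD, n = 3 each), a difference of -0.55 (limma adjusted p = 7.45e-05). Hdac11, the gene named in another label field, averaged 4.89 ± 0.147, inside the background range, in the Hdac3 deleted samples and 5.47 ± 0.063 in the wild type samples, at least 1.24-fold lower with no overlap (limma adjusted p = 0.000864). The 2 values thus do not settle between the labels. The Hdac3 probe set's position relative to the floxed exons is not known here. Foxp3, the defining transcription factor of regulatory T cells, averaged 3.68 in the Hdac3 deleted samples and 3.77 in the wild type samples and lay in the background range in both groups. The defining macrophage and neutrophil markers, which do not belong to regulatory T cells, were far higher in all 3 Hdac3 deleted samples. The 9 measured monocyte and macrophage genes, all 9 higher, had a mean level of 12.63 to 12.66 in the Hdac3 deleted samples and 5.35 to 5.47 in the wild type samples. The 6 neutrophil genes, all 6 higher, had 11.70 to 11.74 in the Hdac3 deleted samples and 4.53 to 4.83 in the wild type samples. The 5 measured T cell marker genes, all 5 lower, had 10.67 to 10.69 in the Hdac3 deleted samples and 12.08 to 12.15 in the wild type samples. All 3 Hdac3 deleted samples thus stand apart from the label in the same way, and no Hdac3 deleted sample without this shift exists to compare with.

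The checkpoint genes split by direction. Cd96 and Cd200 were each about 9-fold lower in the Hdac3 deleted samples, and Cd160 was lower by a smaller amount on the deposited scale, though not relative to the CD3 genes of the T cell receptor complex. Lag3 and Havcr2 were higher, and Cd200r1, the receptor of CD200, was higher by less than 2-fold. At a limma adjusted p under 0.05 with at least a 2-fold difference, 3 of the 6 genes fell and 2 rose, against 4.46% of all 12393 genes lower and 9.04% higher. By limma adjusted p alone all 6 passed, as did 61.2% of all genes. The 3 values of one group did not overlap the 3 of the other for any of the 6, which was also true of 67.4% of all genes. The median difference of all genes was -0.17, so differences near that value are at the centre of these arrays. That of the 6 genes was also -0.17, but it falls between Cd160 (-1.04) and Cd200r1 (0.70). No member lay near it. In these bulk samples, fewer cells that express a gene and less of its RNA per cell cannot be told apart.

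**Figure D1:**
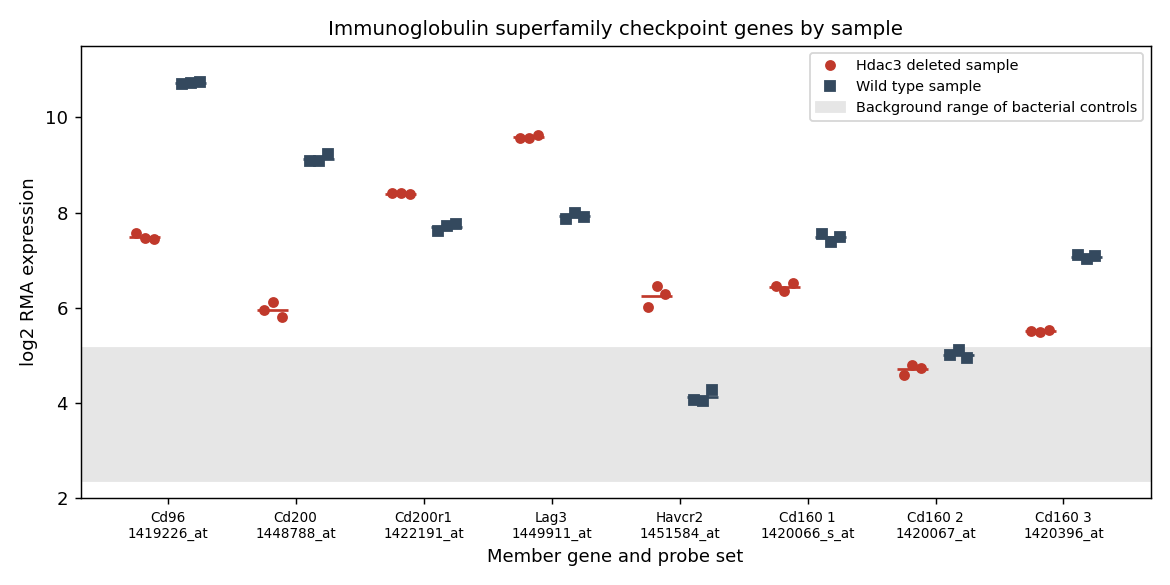
Log2 RMA expression (vertical axis) of each member probe set (horizontal axis), with the 3 Hdac3 deleted samples left of the 3 wild type samples; each point is 1 sample, short lines are group means, and the shaded band is the background range of 2.37 to 5.16. Cd96, Cd200 and Cd160 were lower and Lag3, Havcr2 and Cd200r1 higher in the Hdac3 deleted samples on this scale, with no overlap between groups, and the wild type values of Havcr2 and both groups of 1 Cd160 probe set lay inside the band.

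Cd96 had the largest fall of the members. Its probe set 1419226_at read 7.57, 7.47 and 7.44 in the Hdac3 deleted samples, against 10.71, 10.73 and 10.75 in the wild type samples. Every Hdac3 deleted sample lay about 3 log2 units under every wild type sample, and all 6 values were well above the background range. The means were 7.49 ± 0.066 (Hdac3 deleted) and 10.73 ± 0.018 (wild type), with the SD over n = 3 each as for the other members, and the difference was -3.23 (SE 0.061, 95% interval -3.38 to -3.09), a 9.39-fold lower level (limma adjusted p = 2.86e-08). Among the 7953 genes above background in both groups it ranked as the 4th largest fall.

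Cd200, the ligand of the CD200 receptor, fell by nearly the same amount. Probe set 1448788_at read 5.95, 6.12 and 5.81 in the Hdac3 deleted samples and 9.09, 9.08 and 9.23 in the wild type samples. The Hdac3 deleted values were within about 1 log2 unit of the top of the background range, whereas the wild type values were far from it. The means were 5.96 ± 0.157 (Hdac3 deleted) and 9.13 ± 0.085 (wild type), with a difference of -3.17 (SE 0.094, 95% interval -3.39 to -2.95), a 9.0-fold lower level (limma adjusted p = 2.34e-07). It ranked 5th among the same falls, directly after Cd96, and the intervals of the 2 differences overlap.

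Cd160 was lower in all of its 3 probe sets, by amounts that differed. Probe set 1420396_at read 5.51, 5.49 and 5.54 in the Hdac3 deleted samples and 7.11, 7.03 and 7.10 in the wild type samples, a difference of -1.56 (SE 0.058, limma adjusted p = 7.12e-07). Probe set 1420066_s_at, whose suffix marks probes that can match several transcripts, read 6.46, 6.34 and 6.52 in the Hdac3 deleted samples and 7.56, 7.38 and 7.49 in the wild type samples, a difference of -1.04 (SE 0.076, limma adjusted p = 2.46e-05). Both sets separated the groups without overlap, and the second, the brighter over all 6 arrays, stands for the gene in the counts above. Probe set 1420067_at read 4.59 to 4.80 in the Hdac3 deleted samples and 4.94 to 5.10 in the wild type samples, inside the background range in both groups, so its difference of -0.31 carries little weight. The gene's fall of 2.05-fold by its brighter set sits close to the 2-fold threshold. It was under it without the second Hdac3 deleted sample (-0.99) and without the first wild type sample (-0.996). The same held with cyclic loess (-0.86) and, in the fit over all probe sets, with array weights (-0.999).

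Lag3, the MHC class II receptor related to CD4, was higher in every Hdac3 deleted sample. Probe set 1449911_at read 9.57, 9.57 and 9.63 in the Hdac3 deleted samples, against 7.87, 8.0 and 7.90 in the wild type samples. The groups were separated by more than 1 log2 unit, and both lay above background. The means were 9.59 ± 0.036 (Hdac3 deleted) and 7.92 ± 0.068 (wild type), and the difference was 1.67 (SE 0.063, 95% interval 1.52 to 1.82), a 3.18-fold higher level (limma adjusted p = 8.07e-07).

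Havcr2, which encodes TIM-3, was measurable only in the Hdac3 deleted samples. Probe set 1451584_at read 6.01, 6.46 and 6.29 there, and 4.07, 4.04 and 4.27 in the wild type samples, which is inside the background range. Its wild type level is therefore only bounded, and Havcr2 was at least 2.14-fold higher in the Hdac3 deleted samples, measured from the top of that range (limma difference 2.12, SE 0.124, adjusted p = 7.37e-06).

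Cd200r1 was the member with the smallest change. Probe set 1422191_at read 8.40, 8.40 and 8.39 in the Hdac3 deleted samples and 7.61, 7.72 and 7.75 in the wild type samples. The groups did not overlap, and the Hdac3 deleted samples were nearly identical. The difference was 0.70 (SE 0.062, 95% interval 0.56 to 0.85), a 1.63-fold higher level (limma adjusted p = 6.38e-05), which is below the 2-fold threshold. The receptor and its ligand Cd200 thus differed from wild type in opposite directions.

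**Figure D2:**
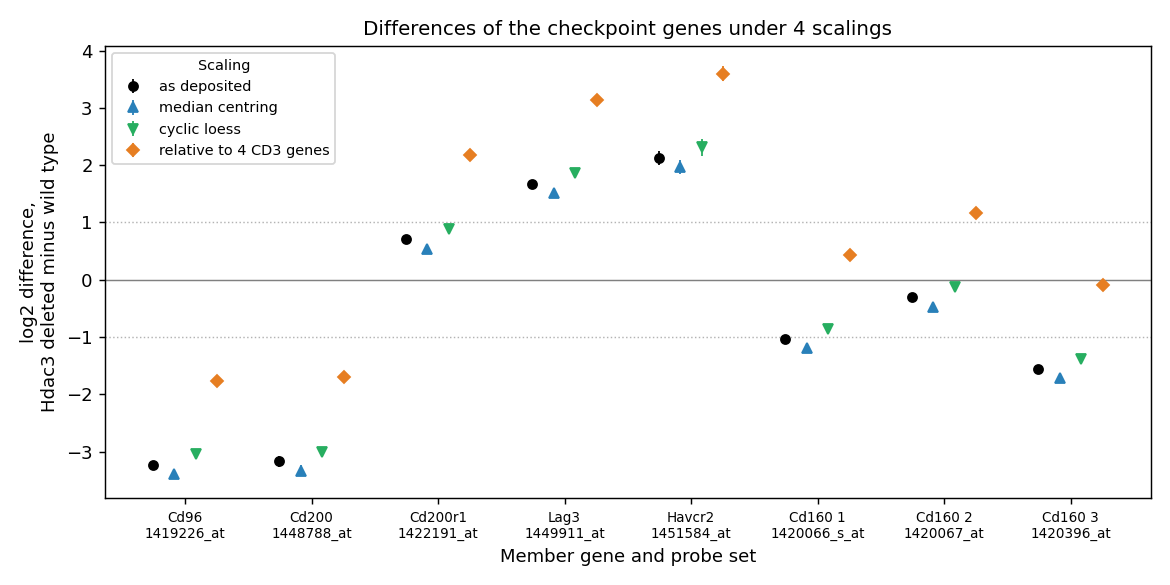
Log2 difference, Hdac3 deleted minus wild type (vertical axis), of each member probe set (horizontal axis) under 4 scalings: as deposited, after median centring, after cyclic loess and relative to the 4 CD3 genes; bars are SE and dotted lines mark 2-fold. Cd96 and Cd200 were lower and Cd200r1, Lag3 and Havcr2 higher under all 4, whereas Cd160 probe sets 1420066_s_at (0.43) and 1420067_at (1.16) lay above 0 relative to the CD3 genes.

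The cell type markers that moved with these genes are set beside them here. LAG3, TIM-3 and CD200R1 are also made outside T cells, TIM-3 and CD200R1 by myeloid cells among others. The myeloid lists were higher in the Hdac3 deleted samples, as were Lag3, Havcr2 and Cd200r1. With 2 groups every higher gene rises in the same 3 samples, so this alone says nothing of a link. Csf1r, the macrophage growth factor receptor, averaged 14.2 in the Hdac3 deleted samples and 6.66 in the wild type samples. CD96 and CD160 are also known from natural killer cells. Of the 5 measured natural killer genes, 1 rose past both thresholds (Klrk1, 1.41), and Ncr1 and Klra8 lay in the background range in both groups. Klrd1 (0.94, limma adjusted p = 0.00136) and Eomes (0.77, 0.000257) were higher by less than 2-fold. Klrk1 and Klrd1 were in the background range in the wild type samples. The list's mean level was 4.94 to 5.01 in the Hdac3 deleted samples and 4.36 to 4.53 in the wild type samples. Of the 5 regulatory T cell markers, Ikzf2 fell by 1.58 past both thresholds, Tnfrsf18 stood at -0.86 and Ctla4 at 0.07, Foxp3 was in the background range, and Il2ra, which encodes the sort marker CD25, was 0.71 higher (limma adjusted p = 2.67e-05, under 2-fold). Past both thresholds 1 of 2 CD8 T cell markers fell, and 2 of 5 dendritic cell, 1 of 4 B cell and 2 of 4 mast cell and basophil markers rose. Over all genes 9.04% were higher and 4.46% lower past both. The B cell gene, Cd79b, stood at 1.01. The dendritic, B cell and mast cell lists each had 2 genes in the background range in both groups. The 4 CD3 genes, which mark T cells, had mean levels of 10.73 to 10.77 in the Hdac3 deleted samples and 12.17 to 12.26 in the wild type samples. Measured relative to the CD3 genes, a scale on which the median of all genes was 1.30 higher, Cd96 still differed by -1.76 (limma adjusted p = 1.16e-07) and Cd200 by -1.70 (7.67e-07), so both fell by more than the CD3 genes. On that scale the brighter Cd160 probe set was higher, by 0.43 (adjusted p = 0.00192), and the other bright set differed by -0.10 (adjusted p = 0.211). The part of these marker shifts in the members' differences was not tested.

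**Figure D3:**
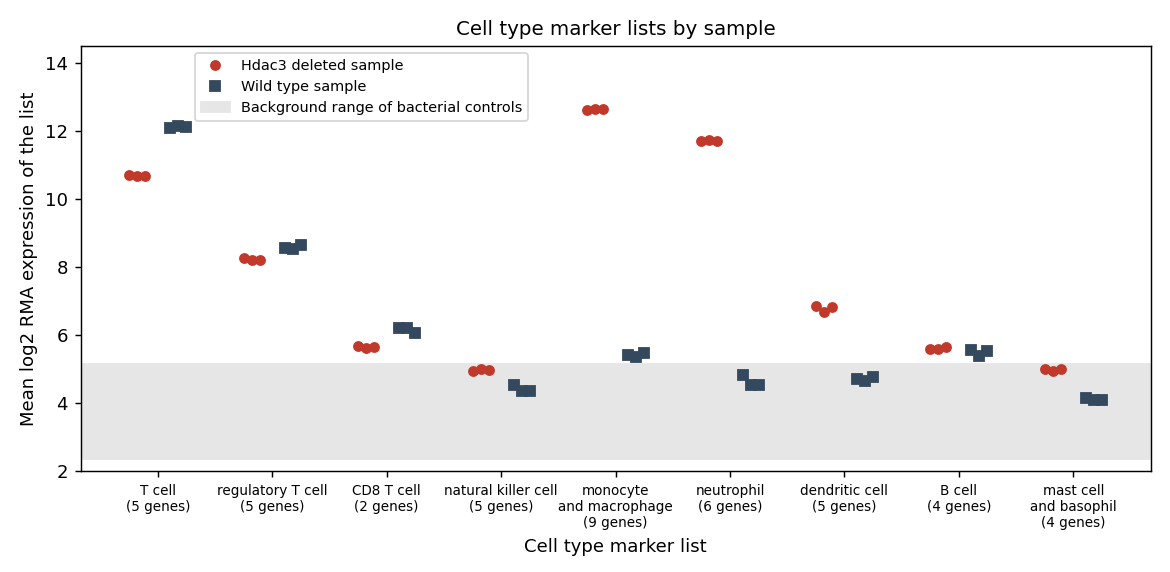
Mean log2 RMA expression of each cell type marker list (vertical axis) in every sample, with the 3 Hdac3 deleted samples left of the 3 wild type samples and the background range shaded. The monocyte and macrophage list lay at 12.63 to 12.66 in the Hdac3 deleted samples and 5.35 to 5.47 in the wild type samples, and the T cell list at 10.67 to 10.69 in the Hdac3 deleted samples and 12.08 to 12.15 in the wild type samples.

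Cd200r1, Cd200 and Cd96 lie in that order on chromosome 16 of the RefSeq mouse annotation (GRCm38.p6), at either end and within a run of 20 protein-coding genes. Of the 20, 11 were measured, and 8 of these were not members. None of the 8 passed both thresholds in either direction, against 9.04% of all genes higher and 4.46% lower. With so few genes, none passing is near those shares. Of the 8, 5 (Ccdc80, Gcsam, BC016579, Tagln3 and Phldb2) lay in the background range in both groups. The 3 expressed neighbours were Slc35a5 (0.29), Atg3 (-0.27), an enzyme of autophagosome formation, and Abhd10 (-0.06). Averaged over a gene's probe sets Slc35a5 was at 0.04 and Abhd10 at -0.25, and with cyclic loess Atg3 was at -0.06. Relative to the CD3 genes the 3 were higher, at 1.20 (Atg3) to 1.75 (Slc35a5). On the deposited scale Cd200 and Cd96 were thus the 2 measured genes of the run past both thresholds. Whether the run differs from others was not tested.

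**Figure D4:**
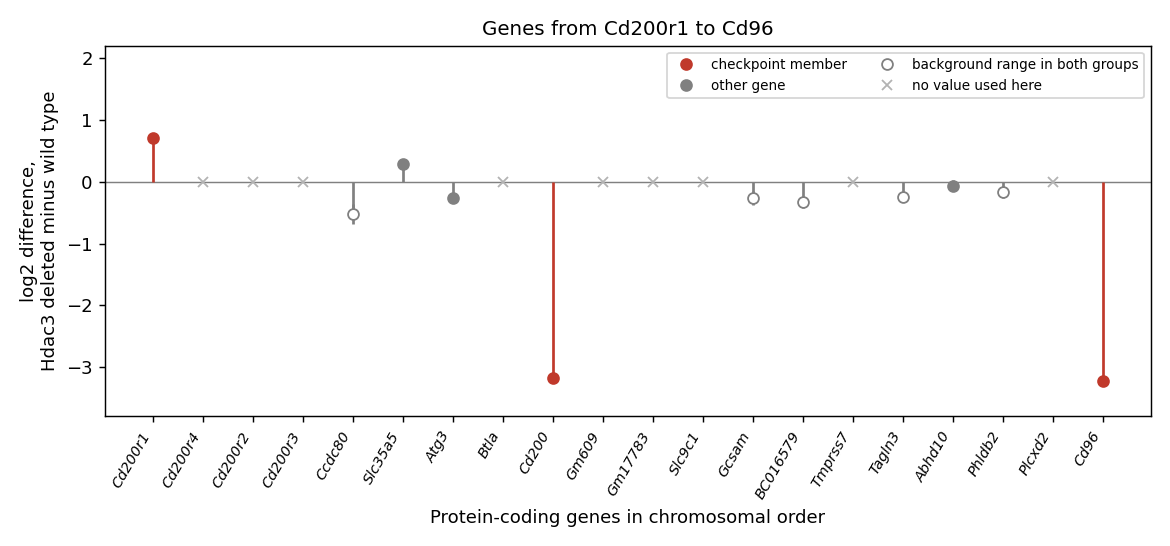
Log2 difference, Hdac3 deleted minus wild type, of the protein-coding genes from Cd200r1 to Cd96 in chromosomal order (horizontal axis), with stems from 0 and short bars for SE. Cd200 (-3.17) and Cd96 (-3.23) reach far below 0, Cd200r1 (0.70) lies above it, and the other measured genes lie between; crosses mark genes with no value used here.

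Because Cd96 and Cd200 fell together and Havcr2 moved the other way, the 250 bases before the start site of each are shown, from RefSeq on GRCm38.p6 and read 5′ to 3′ on the gene's strand. Capitals mark matches to 6 motif spellings searched on both strands: RUNX (TGTGGT), forkhead (TGTTTAC), the GATA family (AGATAA), AP-1 (TGANTCA), ETS (CCGGAA) and STAT (TTCNNNGAA). The windows are chr16:46120249-46120498 on the minus strand for Cd96, chr16:45409054-45409303 on the minus strand for Cd200 and chr11:46454681-46454930 on the plus strand for Havcr2.
Cd96: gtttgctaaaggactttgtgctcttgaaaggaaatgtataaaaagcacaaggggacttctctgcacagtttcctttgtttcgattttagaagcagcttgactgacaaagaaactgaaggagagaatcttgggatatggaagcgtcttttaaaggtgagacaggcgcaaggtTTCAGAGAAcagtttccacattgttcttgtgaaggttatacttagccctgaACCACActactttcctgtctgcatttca
Cd200: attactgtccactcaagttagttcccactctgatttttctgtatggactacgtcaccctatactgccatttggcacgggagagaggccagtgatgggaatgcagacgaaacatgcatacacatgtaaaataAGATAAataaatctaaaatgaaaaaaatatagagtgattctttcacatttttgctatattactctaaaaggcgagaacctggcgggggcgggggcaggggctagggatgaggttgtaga
Havcr2: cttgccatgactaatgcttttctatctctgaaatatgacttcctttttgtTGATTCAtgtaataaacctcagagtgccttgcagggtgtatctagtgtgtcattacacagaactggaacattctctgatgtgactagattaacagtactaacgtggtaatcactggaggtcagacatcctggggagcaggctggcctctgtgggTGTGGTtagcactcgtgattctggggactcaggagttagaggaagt

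The Cd96 window held a RUNX match, ACCACA, at 28 to 23 bases before the start and a STAT match, TTCAGAGAA, at 79 to 71. The Cd200 window held 1 match, the GATA spelling at 119 to 114 bases before the start, and so shared none of the 6 motifs with Cd96. Cd160, the other member that fell, has 2 promoters in the table, with a RUNX match in both and a STAT match in 1, the motifs matched in Cd96. The Havcr2 window held a RUNX match at 46 to 41 bases and an AP-1 match, TGATTCA, at 200 to 194. Over all 32851 promoters of the same length the RUNX spelling occurred in 14.0%, STAT in 7.02%, GATA in 9.99% and AP-1 in 6.75%, and the forkhead (3.17%) and ETS (12.0%) spellings in none of these 3 windows. Forkhead is the family of FOXP3, and the missing letters say nothing of its binding. The 3 windows had 41.2% (Cd96), 42.4% (Cd200) and 44.8% (Havcr2) G or C bases, below the median of 52.4% over all promoters. Matches of this kind describe letters and not bound sites. Of the measured members 4 had a promoter in the table.

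The ligands and signalling partners of the checkpoint genes changed in a mixed way, and their largest rises were genes that myeloid cells and other antigen-presenting cells use. Of 35 listed partner genes 28 were measured. Past both thresholds 8 rose and 2 fell, against 9.04% of all genes higher and 4.46% lower. By limma adjusted p alone 14 were higher and 6 lower, and 8 did not pass, where 61.2% of all genes passed in either direction. The median partner difference was 0.12, and 6 partners lay in the background range in both groups.

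Among the nectin family ligands that CD96 and CD226 bind, Pvr, the CD155 gene, read 7.92, 7.86 and 8.09 in the Hdac3 deleted samples, against 8.55, 8.52 and 8.47 in the wild type samples. The groups did not overlap, the difference was -0.56 (limma adjusted p = 0.000451), and all 5 of its probe sets above background were lower, with differences of -0.65 to -0.47. Nectin2, the CD112 gene, averaged 7.09 ± 0.081 in the Hdac3 deleted samples and 4.58 ± 0.058 in the wild type samples (SD, n = 3 each), the second inside the background range, and was at least 3.82-fold higher by this probe set and at least 1.24-fold higher by its other one. Cadm1, a nectin-like adhesion molecule bound by CRTAM, averaged 11.2 in the Hdac3 deleted samples and 4.63, in the background range, in the wild type samples, at least 65.1-fold higher by its brightest probe set and at least 8.40-fold by the dimmest of its 4. Nectin1, Nectin3 and Crtam were in the background range in both groups.

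The CD226 partners, given here although Cd226 itself had no value, showed differences under 2-fold, given here with limma adjusted p in parentheses. The integrin chains Itgal (-0.53, 0.00902) and Itgb2 (0.22, 0.0134) differed in opposite directions on the deposited scale, but Itgb2 did not pass after median centring (0.06, 0.341) and both were higher relative to the CD3 genes. The kinase gene Fyn was at -0.16 (0.023) by 1 probe set and 0.10 (0.217) by the other, so its direction is not settled. Vav1, an exchange factor, was at 0.51 (0.00132). The adaptor Grb2 was at 0.61 (7.81e-05) by 1 probe set and -0.06 (0.459) by the other, which disagree. For CD200R1, which signals through DOK adaptors to the Ras GTPase activating protein encoded by Rasa1, Dok1 was at 0.67 (0.000139) and Rasa1 at -0.61 (5.76e-05). Dok2, the adaptor that CD200R1 recruits directly, read 9.78, 9.66 and 9.70 in the Hdac3 deleted samples and 9.68, 9.76 and 9.78 in the wild type samples, which overlap (limma adjusted p = 0.723).

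The ligands of LAG3 held the largest differences of the partners. H2-Aa, an MHC class II alpha chain gene, read 14.22, 14.20 and 14.24 in the Hdac3 deleted samples and 6.01, 5.53 and 5.65 in the wild type samples, a difference of 8.49 (limma adjusted p = 1.25e-08). H2-Eb1 differed by 7.78, and H2-Ab1, whose wild type mean of 5.14 was inside the background range, was at least 308-fold higher by its brightest probe set and at least 80.6-fold by the dimmest of its 3. Lgals3, the galectin-3 gene, averaged 11.94 in the Hdac3 deleted samples and 7.27 in the wild type samples, a difference of 4.67 (limma adjusted p = 7.38e-08). These MHC class II genes are hallmarks of antigen-presenting cells, and the macrophage list was also higher in the Hdac3 deleted samples. Between these groups every higher gene rises in the same samples, and a link was not tested. Of the sheddases that cut LAG3 from the cell surface, Adam17 rose by 1.04 by its brightest probe set (limma adjusted p = 6.96e-06). Its other probe sets, at 0.55 and 0.70, were higher by less than 2-fold. The 3 probe sets of Adam10 disagreed in direction, at -0.42 to 0.20. Cd4, the relative of LAG3 that the sort selected on, read 9.11, 9.22 and 9.17 in the Hdac3 deleted samples and 10.25, 10.16 and 10.17 in the wild type samples, a difference of -1.02 (limma adjusted p = 6.73e-06). Lag3 and Cd4 thus differed in opposite directions.

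Among TIM-3 partners, Lgals9, the galectin-9 ligand, read 9.17, 9.22 and 9.11 in the Hdac3 deleted samples and 10.35, 10.47 and 10.49 in the wild type samples, a difference of -1.27 (limma adjusted p = 3.86e-06), opposite to Havcr2. Ceacam1, another ligand, differed by 0.51 (limma adjusted p = 0.00447) in the set that stands for it. In 4 further probe sets it was in the background range in the wild type samples and at least 2.22-fold to 3.91-fold higher in the Hdac3 deleted samples. The suffixes of these 4 mark probes that can match several transcripts. Of its 8 probe sets, 5 were above background in a group. Bag6, the cytoplasmic adaptor of TIM-3, differed by -0.01 (limma adjusted p = 0.825) with overlapping groups. Tnfrsf14, the ligand of CD160, read 7.36, 7.39 and 7.30 in the Hdac3 deleted samples and 6.03, 6.44 and 6.40 in the wild type samples, higher by 1.06 (limma adjusted p = 0.000162), opposite to Cd160 on the deposited scale. Relative to the CD3 genes, a scale on which 80.9% of all genes passed both thresholds, the partners Pvr, Itgal, Fyn, Rasa1, Cd4 and Lgals9 turned from lower to higher, at 0.19 (Lgals9) to 1.30 (Fyn), and Fyn also turned with cyclic loess (0.0497). Dok2 (1.44) and Bag6 (1.45) were also higher on that scale, and passed adjusted p as lower after median centring (-0.19 and -0.17) and as higher after cyclic loess (0.18 and 0.17).

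**Figure D5:**
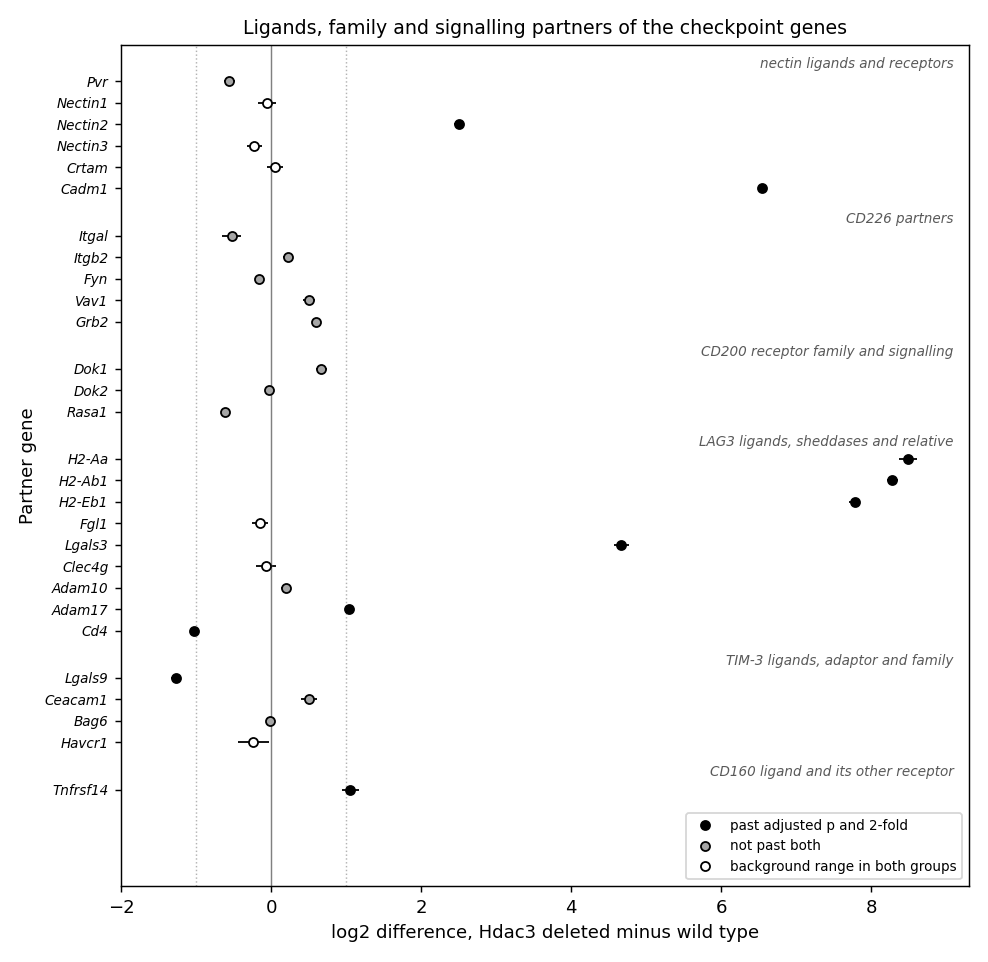
Log2 difference, Hdac3 deleted minus wild type (horizontal axis), of the 28 measured partner genes grouped by the checkpoint gene they act with. Bars are SE and dotted lines mark 2-fold. Black points passed both thresholds, grey points did not pass both, and open points lay in the background range in both groups. The class II genes H2-Aa (8.49) and H2-Eb1 (7.78) and Cadm1 lie far to the right, and Cd4 (-1.02) and Lgals9 (-1.27) are the 2 black points on the left.

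The genes whose 6 values, centred on their own mean, were closest to a member give the company each keeps across these samples, by the root mean square distance over the 6 arrays in log2 units. The 3 nearest to Cd96 were Id3 (distance 0.075, difference -3.16), Ncmap (0.077, -3.34) and Itm2a (0.090, -3.29). Id3 encodes an inhibitor of E protein transcription factors in T cells. Cd200 had Itm2a (0.088), Id3 (0.103) and Cd96 itself (0.105) nearest. Lag3 was nearest to Rnf149, Trp53inp2 and Slc16a3, a lactate transporter gene, at 0.025 to 0.031, with the wild type levels of Trp53inp2 and Slc16a3 in the background range. Havcr2 was nearest to Clec5a, a myeloid C-type lectin receptor gene, Camk1 and the mitotic kinase gene Bub1, at 0.078 to 0.101, but the wild type levels of Havcr2, Clec5a and Camk1 were in the background range, so these distances rest on levels that were not measured. Cd160 was nearest to Golm1, Cdpf1 and Srpk1, at 0.042 to 0.046, and Cd200r1 to Zc3h7a, Cnn3 and Mfap3, at 0.022 to 0.029. With 2 groups of 3 samples, such closeness is mostly a like difference between the groups.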

How the data were processed

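Total RNA of 6 mouse CD4+CD25+ T cell samples, 3 Hdac3 deleted and 3 wild type, was biotin labelled and hybridised to Affymetrix Mouse430a arrays. Per the labels, the authors normalised by RMA with MAYDAY 2.12, and deposited a table of log2 levels, 1 row a probe set. RMA gives the arrays a common distribution of probe signals, so total RNA per cell is not seen. The methods' test was Student's, at a false discovery rate of 0.05 with 2-fold.

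Here 64 control probe sets were left out, and 20380 probe sets with 1 symbol in the platform annotation were kept for genes (691 had several, 1555 none; 20351 matched RefSeq). Each gene was taken from its brightest such probe set, by the mean of the 6 arrays. Groups were compared two-sided by limma 3.58.1 in R 4.3.3, adjusted by Benjamini-Hochberg over all probe sets for member probe sets and over all 12393 genes for counts, partners and other genes, and tested on simulated data. Plots used matplotlib 3.10.9. A gene in the background range in 1 group has its fold from the top of that range.

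Named genes are all members, the partner list, the genes between Cd200r1 and Cd96, checks and the 3 nearest genes of each member. Members and lists were chosen with earlier results of these data known. Alternatives were the methods' t-test, the replicate number as a block, other normalizations, filters, priors and weights, values relative to the CD3 genes, leaving out each sample, other fold thresholds and probe set choices.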

Additional observations from a re-analysis of the deposited data

How the results depend on the processing

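The direction and the side of the adjusted p threshold of Cd96 (-3.39 to -1.76), Cd200 (-3.33 to -1.70), Cd200r1 (0.54 to 2.17), Lag3 (1.51 to 3.14) and Havcr2 (1.96 to 3.59) held under all 15 alternatives. Member genes called lower numbered 3. Without Hdac3 deleted replicate 2, without wild type replicate 1, with cyclic loess and after averaging probe sets by gene they numbered 2. The same held relative to the CD3 genes, and Cd160 was the one lost each time. Leave-one-out gave 2 to 3 lower and 2 higher. Called higher were 2 members, and 3 relative to the CD3 genes, at 1.5-fold and without a fold threshold. Of partners, leave-one-out gave 7 to 8 higher and 1 to 2 lower. The fewest called higher under any alternative was 6. After median centring Adam17 (0.88) and Tnfrsf14 (0.90) were under 2-fold. Adam17 was also under it after averaging probe sets (0.76). Tnfrsf14 was also under it after quantile normalization again (0.93) and without wild type replicate 1 (0.93). Partners called lower numbered 1 with cyclic loess, without probe sets matching several transcripts and after averaging probe sets. Relative to the CD3 genes, where 80.9% of all genes were called, 23 partners were called higher and 0 lower. Without a fold threshold 14 were called higher and 6 lower. Relative to the CD3 genes these reversed: the Cd160 sets (0.43 and, in background, 1.16), Pvr (0.91), Itgal (0.94), Fyn (1.30), Rasa1 (0.86), Cd4 (0.44), Lgals9 (0.19), Atg3 (1.20), Hdac3 (0.91), Hdac11 (0.88), Golm1 (0.48), Cdpf1 (0.43) and Srpk1 (0.48); the bright Cd160 set 1420396_at stood at -0.10 (limma adjusted p = 0.211). Fyn lost its call with the replicate block (limma adjusted p = 0.0688), in 4 of 6 leave-one-out fits and after averaging probe sets (-0.03), and Itgb2 lost its call after median centring (0.06). Cyclic loess turned Fyn to 0.0497 and put Cd160 set 1420067_at at -0.13 (limma adjusted p = 0.284), the mean of probe sets turned Adam10 to -0.16, and leaving out multi-transcript probe sets turned Zc3h7a to -0.40. The cause was not tested. The median difference of all genes was -0.17 as deposited, -0.33 after median centring, 0.00 after cyclic loess and 1.30 relative to the CD3 genes; the share of called genes that were higher was 66.9%, 53.2%, 79.1% and 99.8%.

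With the replicate block, Cd96 had an adjusted p of 4.08e-06 by limma, and the counts stayed at 2 higher and 3 lower for members and 8 higher and 2 lower for partners. Deviations from the group means correlated at 0.092, 0.084 and -0.189 for same-numbered samples, and at -0.249 to 0.206 for differently numbered ones. With 3 samples a group, these values cannot tell whether the numbers pair the samples.

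The number of arrays limits precision, and values near the background range understate change.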
